A study of Mus musculus with 2 samples.

Results

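The colony-stimulating factor receptors and ligands were described here as 10 genes taken by symbol, out of 55536 genes in the deposited tables, 22028 of them protein-coding. The ligands were Csf1, Il34, Csf2 and Csf3. The receptor chains were Csf1r, Csf2ra, Csf2rb, Csf2rb2, Csf3r and Flt3. The study sequenced polyadenylated RNA from cultured macrophages grown out of the bone marrow of C57BL/6J mice, an inbred laboratory strain. Both libraries, replicate 1 and replicate 2, came from cells exposed for 30 min to a bacterial product at 100 ng/ml, and 1 µg of RNA went into each. The submitters' records disagree on the agent, giving lipid A (the part of bacterial endotoxin that activates TLR4) in one field and lipoprotein A in others. The replicates carry separate biosample records under a single donor record, so nothing shows that they came from different mice. Sex and age were not collected, and the growth factor used to raise the cells is not given in the sources used here. No untreated or other group was analysed here, so levels are given as a description, and any test compares the 2 libraries with each other and not a treatment with a control.

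Colony-stimulating factors are secreted proteins that keep myeloid cells alive and direct their growth and maturation. CSF1R is a receptor tyrosine kinase with 2 ligands, CSF1 and IL-34, and macrophages depend on it for survival. GM-CSF (gene Csf2) binds a receptor made of its own alpha chain (Csf2ra) and the common beta chain (Csf2rb), which also serves IL-3 and IL-5, and mice have a further beta chain (Csf2rb2) that pairs with the IL-3 receptor alpha chain. G-CSF (gene Csf3) acts on CSF3R, the main growth factor receptor of neutrophils, and FLT3 is a relative of CSF1R that acts in progenitors and in the dendritic cell lineage.

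Most of the receptor chains were detected and most of the ligands were not. At a limit of 1 TPM (a level corrected for transcript length and scaled to the same total in each library) in both libraries, 5 of the 6 receptor chains and 1 of the 4 ligands were detected, 6 of 10 genes in all. Among all genes, 10658 passed this limit, including 9983 protein-coding genes or 45.3%. Csf1r had the highest level of the 10 genes at 823 ± 83.5 TPM (SD, n = 2), followed by the beta chains Csf2rb and Csf2rb2, whose order turned round by counts and without a short Csf2rb transcript. Next came Csf2ra and Csf3r, whose ranges over the libraries overlapped. Csf1 was below them, then Csf2 and Flt3, whose ranges also overlapped, and Il34 and Csf3 were listed at 0. For scale, the median level of all detected genes was 16.3 TPM.

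**Figure D1:**
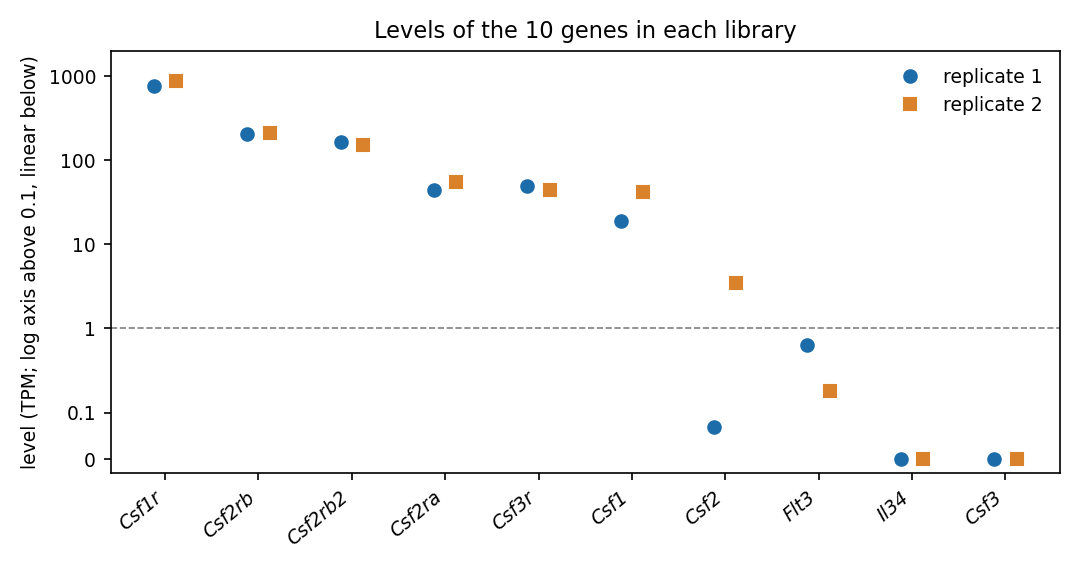
Level in TPM (log axis above 0.1, linear below) of the 10 genes in replicate 1 (circles) and replicate 2 (squares), in order of their mean level, with a dashed line at 1 TPM. Csf1r stands at 764 and 882 TPM, while Csf2 is above the line in replicate 2 only, at 3.48 TPM.

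The libraries held 37784941 (replicate 1) and 51904470 (replicate 2) expected counts over genes, and a gene at 0 may still have had 3 counts, or 0.0794 CPM in replicate 1 and 0.0578 CPM in replicate 2. Each gene with 10 or more counts in sum was compared between the libraries by an exact two-sided binomial test on TMM-scaled counts, with Benjamini-Hochberg adjustment over all 14110 genes tested and a threshold of 0.05. Of the 8 colony-stimulating factor genes tested, 6 were called, against 59.6% of all genes tested. Of these, 3 were lower in replicate 1 (background 29.4%) and 3 were higher (background 30.1%). Csf1, Csf2 and Flt3 were also more than 2-fold apart, against 11.2% of all genes tested. At this depth counting error is small, so a call says only that 2 libraries of a single group differ by more than counting error. A better measure of the replicate error is the SD of the log2 ratio, at 0.58. It was taken over the 11059 genes with a mean of 1 TPM or more and counts in both libraries, out of 11106 at that mean. Calls over all genes were balanced under TMM scaling, with 50.6% higher in replicate 1, while 31.4% were higher when counts were scaled by their total, a choice that placed the median log2 ratio of detected genes at -0.12 in place of 0.02.

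**Figure D2:**
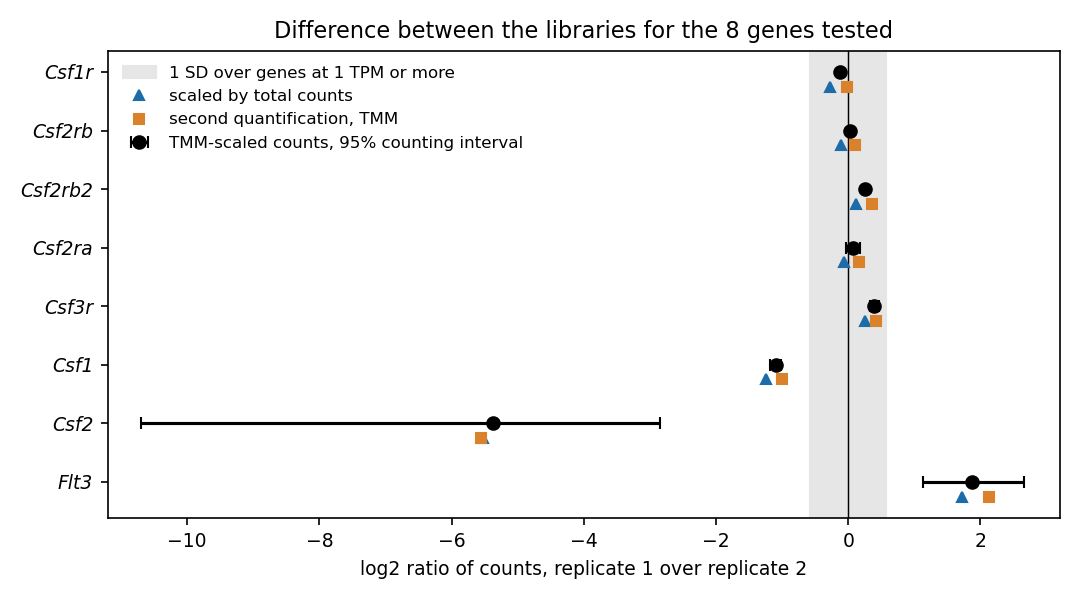
Log2 ratio of counts, replicate 1 over replicate 2, for the 8 genes tested, with the 95% counting interval (black bars), the values under total-count scaling (triangles) and in the second deposited quantification (squares). The grey band is 1 SD (0.58) of the log2 ratio over the genes with a mean of 1 TPM or more and counts in both libraries. Csf1, Csf2 and Flt3 lie outside it at -1.10, -5.38 and 1.87. Flt3, at a mean of 0.405 TPM, is not among the genes that set the band.

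The cells carried the marker genes of macrophages. All 10 macrophage markers were detected, summing to 24705 TPM in replicate 1 and 30705 TPM in replicate 2. Of these, 8 were called higher and 2 lower in replicate 1, against 30.1% and 29.4% of all genes tested. With total-count scaling 7 were higher and 3 lower, against 2615 and 5711 of the 14110 genes tested. The sum ran the other way through Lyz2, at 15907 TPM in replicate 1 and 22127 TPM in replicate 2. Neutrophil markers summed to 376 TPM in replicate 1 and 70.8 TPM in replicate 2. Most of each sum was S100a9 (183 and 37.1 TPM) and S100a8 (124 and 18.1 TPM). Of these markers 5 of 12 were detected, with 8 of the 10 tested higher in replicate 1 and none lower (30.1% and 29.4% of all genes tested). Those called included Ngp (939 counts in replicate 1 and 69 in replicate 2), Ltf (383 and 46), Mpo (46 and 3), Camp (23 and 2) and Elane (20 and 1). Cxcr2 (31 and 28 counts) and Fpr1 (22 and 31 counts) were tested and not called. Ly6g, which defines mature mouse neutrophils, was at 1 and 0 counts. Of the 4 monocyte markers all were detected (34.9 and 31.8 TPM in sum), and of 8 dendritic cell markers 2 were (15.8 and 10.5 TPM). Lymphocyte markers summed to 112 TPM in replicate 1 and 82.2 TPM in replicate 2, nearly all of it Cd4, while Cd3e was at 2 and 0 counts and Cd8a, Nkg7 and Ncr1 were at 0 in both. None of the 8 stromal markers (1.12 and 1.20 TPM in sum) and none of the 7 progenitor and mast cell markers (1.39 and 2.67 TPM) was detected in both libraries. In RNA from a whole culture, fewer cells of a type and less RNA per cell cannot be told apart.

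Csf1r (chr18:61100598-61132149, plus strand, mm10) encodes the receptor for CSF1 and IL-34. It was at 764 TPM in replicate 1 and 882 TPM in replicate 2, from 70847 and 117207 expected counts, and ranked 124 among the protein-coding genes. The libraries were close and replicate 1 was slightly lower. The log2 ratio was -0.13 (95% counting interval -0.14 to -0.11; exact binomial test, adjusted p = 1.79e-76), and 74.0% of the 11059 genes had a ratio at least as large. In the second deposited quantification the log2 ratio was -0.02 (exact binomial test, adjusted p = 0.0271). Nearly all of the signal came from a pair of transcripts with the same coding sequence of 2931 bases, Csf1r-201 and Csf1r-202, which differ outside it. Csf1r-201 took 86.3% of the gene's TPM in replicate 1 and 75.2% in replicate 2, and 97.7% and 96.0% in the second quantification. Csf1r shares 873 bases with Hmgxb3 on the opposite strand, which was at 10.5 and 10.9 TPM, and strand use in the counting is not stated.

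The genes that relay the CSF1R signal were present almost in full. Of 21 genes of CSF1R signalling 20 were detected, with a median of 52.7 TPM, and 9 were called higher and 9 lower in replicate 1 (median log2 ratio 0.04, against 0.00 over all genes tested, of which 30.1% were higher and 29.4% lower). With total-count scaling 4 were higher and 13 lower, against 2615 and 5711 of the 14110 genes tested. The list thus has no direction that holds under both scalings. Tyrobp, an adaptor with an activating signalling motif, was at 3066 TPM in replicate 1 and 3419 TPM in replicate 2. Grb2, the adaptor that links receptor tyrosine kinases to Ras, was at 590 TPM in replicate 1 and 474 TPM in replicate 2. Inpp5d, the lipid phosphatase SHIP1 that restrains PI3-kinase signalling, was at 162 and 169 TPM in replicates 1 and 2. The gene missing from the detected set was Fgr, a Src family kinase, at 1.24 TPM in replicate 1 and 0.57 TPM in replicate 2.

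All 8 transcription factors listed as drivers of Csf1r and Csf2ra were detected, with a median of 36.8 TPM. Of these, 2 were called higher and 5 lower in replicate 1 (30.1% and 29.4% of all genes tested). The median log2 ratio was -0.27, against 0.00 over all genes tested. Under total-count scaling 2 were higher and 6 lower, against 2615 and 5711 of the 14110 genes tested. Spi1, which encodes PU.1, the factor that opens the myeloid program, was at 244 TPM in replicate 1 and 294 TPM in replicate 2. Irf8, a monocyte and dendritic lineage factor, was at 178 TPM in replicate 1 and 166 TPM in replicate 2. Cebpa, a factor of the granulocyte and macrophage lineages, was at 106 TPM in replicate 1 and 60.9 TPM in replicate 2 (log2 ratio 0.88; exact binomial test, adjusted p = 1.06e-203).

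Csf1 (chr3:107741048-107760469, minus strand, mm10) was the only ligand detected in both libraries. It was at 18.7 TPM in replicate 1 and 41.8 TPM in replicate 2, from 1432 and 4640 expected counts. Replicate 1 was lower, by more than 2-fold. The log2 ratio was -1.10 (95% counting interval -1.18 to -1.01, exact binomial test, adjusted p = 2.73e-155). Of the genes with a mean of 1 TPM or more and counts in both libraries, 5.52% had a ratio at least as large. The second quantification gave 16.1 TPM in replicate 1 and 43.1 TPM in replicate 2, with a log2 ratio of -1.01.

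Csf1 is spliced into forms that differ in how the protein is released. Csf1-201 and Csf1-203 share a coding sequence of 1656 bases, while Csf1-202 has 771 coding bases: after coding base 544 it skips 885 bases, or 295 residues, in frame, and the rest is identical. The skipped stretch is what separates the long precursor, which is cut and secreted, from the short form that stays longer at the cell surface. The reads that cross the splice junction after coding base 544 tell the forms apart, and coding bases 515 to 574 of each are shown because they carry that difference. They read 5′ to 3′ on the minus strand in mm10, within chr3:107749140-107750340 for Csf1-201 and chr3:107748255-107750340 for Csf1-202 with the intron left out, and capitals mark the bases after the junction.
Csf1-201: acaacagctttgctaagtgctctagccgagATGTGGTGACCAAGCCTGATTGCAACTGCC
Csf1-202: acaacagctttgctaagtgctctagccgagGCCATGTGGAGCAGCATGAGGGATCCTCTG

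The long form was the leading one in both libraries. Csf1-201 took 57.0% of the gene's TPM in replicate 1 and 62.1% in replicate 2, at 10.7 and 26.0 TPM. Csf1-202, the short form, took 16.9% in replicate 1 and 17.6% in replicate 2. In the second quantification the share of the short form was lower, at 6.27% in replicate 1 and 3.37% in replicate 2, while Csf1-201 kept 62.0% and 61.0%. Csf1-203, the long form with a shorter transcript, took 16.3% in replicate 1 and 7.28% in replicate 2, and 18.5% and 12.1% in the second quantification. The order of the long form over the short form was thus shared by both quantifications, while the size of the minor share was not.

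Il34 (chr8:110741829-110805924, minus strand, mm10), the alternative CSF1R ligand made mainly by keratinocytes and neurons, had 0 counts in both libraries and in both quantifications. Its antisense neighbours Gm15894 (0 and 1 counts) and Gm15895 (0 in both) were also at or near 0. Of the other receptors named for IL-34, Sdc1 (the proteoglycan syndecan-1) was at 2.91 TPM in replicate 1 and 3.74 TPM in replicate 2 and was not called, although it was called lower in replicate 1 with total-count scaling, and Ptprz1, a receptor phosphatase of the nervous system, was at 0 in both libraries.

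Csf2 (chr11:54247271-54249667, minus strand, mm10), the GM-CSF gene, differed most of the 10 genes between the libraries. It had 1 count in replicate 1 and 63 counts in replicate 2, or 0.07 TPM and 3.48 TPM. Replicate 1 was below the floor of 3 counts and replicate 2 well above it. The log2 ratio was -5.38 with a wide 95% counting interval of -10.7 to -2.85, set by the single count (exact binomial test, adjusted p = 2.96e-12). Of the 11059 genes with a mean of 1 TPM or more and counts in both libraries, 2 had a ratio at least as large, Csf2 being 1 of them. Genes with no counts in a library have no finite ratio and were left out, so this rank rests on the single count. The second quantification gave 1 count in replicate 1 and 77.9 in replicate 2. An antisense gene that overlaps Csf2, Gm12223, was at 0 counts in both libraries, and so were Il3, which lies 15635 bases from Csf2, and Il5.

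T cells and mast cells also make GM-CSF, so their markers are given beside this value. The T cell genes Cd3e (2 and 0 counts in replicates 1 and 2) and Cd3d (2 and 1 counts) were at or near 0, as were the mast cell genes Cpa3 (2 and 0 counts) and Fcer1a (0 in both). Cd4, which T cells share with some macrophages, was at 111 TPM in replicate 1 and 82.2 TPM in replicate 2. Kit, which mast cells and progenitors carry, was at 45 counts in replicate 1 and 382 counts in replicate 2, or 0.82 and 2.32 TPM (log2 ratio -2.49; exact binomial test, adjusted p = 3.05e-40). By TPM the Kit difference was smaller than by counts. The part of T cells, mast cells or Kit-bearing cells in the Csf2 value was not tested.

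Csf2ra (chr19:61223957-61228429, minus strand, mm10), the GM-CSF specific alpha chain, was at 44.0 TPM in replicate 1 and 55.6 TPM in replicate 2, from 1276 and 1841 expected counts. By counts the libraries did not differ past the threshold, with a log2 ratio of 0.07 (95% counting interval -0.03 to 0.17; exact binomial test, adjusted p = 0.255). By TPM replicate 1 was lower, with a log2 ratio of -0.33 at a pseudocount of 1. The second quantification gave a log2 ratio of counts of 0.17 (exact binomial test, adjusted p = 0.0014), while total-count scaling gave -0.07, so the direction depended on the scaling and on the unit.

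The transcripts of Csf2ra show where the units part. The full coding transcript Csf2ra-201, which encodes the receptor chain in 1164 coding bases, was at 27.3 TPM in replicate 1 and 24.9 TPM in replicate 2, or 62.0% and 44.8% of the gene's TPM. The remainder was mostly short transcripts with no coding sequence. Csf2ra-203 (654 bases) took 12.7% in replicate 1 and 17.5% in replicate 2, and Csf2ra-204 (330 bases) took 9.77% and 22.4%, the smaller of these transcripts resting on only 9.57 and 33.8 expected counts. In the second quantification Csf2ra-201 took 78.9% in replicate 1 and 53.9% in replicate 2, Csf2ra-203 took 2.06% and 11.8%, and Csf2ra-204 took 12.2% and 18.4%. Csf2ra-201 was thus a little higher in replicate 1, while the TPM of the whole gene was lower there.

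Csf2rb (chr15:78325752-78353847, plus strand, mm10) and Csf2rb2 (chr15:78282507-78305721, minus strand) are a pair of beta chain genes that lie 20030 bases apart on opposite strands. Csf2rb encodes the beta chain shared by the GM-CSF, IL-3 and IL-5 receptors, and Csf2rb2 the beta chain that in mice serves IL-3 alone. Aligned over their coding sequences of 2688 and 2634 bases, 2503 of the 2628 columns with a base in both were identical (95.2%), and so were 92.0% of the residues. The alignment had 125 mismatches, and 66 gap columns in 5 gaps. The window of 60 coding bases with the most mismatches, 13, is shown because reads from there can be assigned to a gene. It covers chr15:78338893-78338952 (plus strand, coding bases 304 to 363) in Csf2rb and chr15:78294379-78294438 (minus strand, coding bases 307 to 366) in Csf2rb2, written 5′ to 3′ with the mismatched bases in capitals.
Csf2rb: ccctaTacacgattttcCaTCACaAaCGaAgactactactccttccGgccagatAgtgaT
Csf2rb2: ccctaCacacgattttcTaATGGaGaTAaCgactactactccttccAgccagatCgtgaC

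Elsewhere the coding sequences are identical over long stretches. Runs of 100 or more identical coding bases occurred 4 times, and the longest, of 242 bases, spans coding bases 2083 to 2324 of both genes, at chr15:78348577-78348818 (plus strand) in Csf2rb and chr15:78284630-78284871 (minus strand) in Csf2rb2. It is shown because a read that falls wholly inside it fits both genes equally.
Shared run: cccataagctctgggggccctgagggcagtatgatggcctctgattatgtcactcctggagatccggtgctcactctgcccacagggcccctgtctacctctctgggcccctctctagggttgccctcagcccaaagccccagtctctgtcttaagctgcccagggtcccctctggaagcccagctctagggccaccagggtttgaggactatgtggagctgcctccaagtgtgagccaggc
Over the whole transcripts, 28.9% of the words of 31 bases in Csf2rb-201 also occurred in Csf2rb2-201, against 18.9% for words of 50 bases and 7.16% for words of 100 bases. The levels of this pair therefore carry the uncertainty of how reads were assigned. The deposited posterior SD for Csf2rb covers it in part, at 9.60 of 11842 counts in replicate 1 and 12.9 of 17588 in replicate 2. As a mean over the libraries, Csf2rb had 42.9% of the pair's counts in the main quantification and 43.6% in the second.

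**Figure D3:**
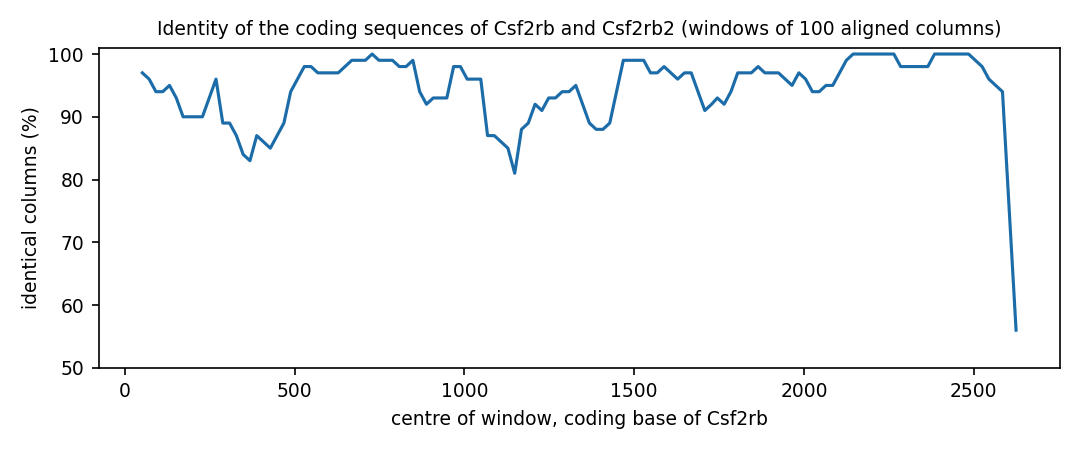
Percent of identical columns in windows of 100 aligned columns along the coding sequence, placed by the coding base of Csf2rb, with gap columns counted as not identical. The line stays at 81 or above up to the last windows, where gaps bring it down to 56. It touches 100 around the longest shared run, at base 728 and from base 2385 to 2485.

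Both beta chains were among the higher expressed genes. Csf2rb was at 207 TPM in replicate 1 and 212 TPM in replicate 2 (percentile 97.3 among protein-coding genes), from 11842 and 17588 expected counts. Its log2 ratio of 0.03 did not pass the test (95% counting interval -0.01 to 0.06; exact binomial test, adjusted p = 0.154), although in the second quantification it was 0.10 and did (exact binomial test, adjusted p = 3.03e-09). With total-count scaling it was -0.11 and was called in the opposite direction (exact binomial test, adjusted p = 1.96e-10). Csf2rb2 was at 165 TPM in replicate 1 and 154 TPM in replicate 2 (percentile 96.6), from 17031 and 21665 expected counts. Its log2 ratio of 0.25 passed the test (95% counting interval 0.22 to 0.28; exact binomial test, adjusted p = 3.89e-63), but 51.5% of genes had a ratio at least as large.

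Which beta chain was higher depended on the unit. Csf2rb had 41.0% of the pair's counts in replicate 1 (95% Wilson interval 40.4 to 41.6) and 44.8% in replicate 2 (44.3 to 45.3), but 55.6% and 58.0% of the pair's TPM. The reversal came from a short annotated transcript, Csf2rb-202, of 397 bases, which matches the first 397 bases of Csf2rb-201. It held 3.03% of the gene's counts in replicate 1 and 2.59% in replicate 2, but 47.9% and 47.5% of its TPM, because its few reads are divided by a small effective length of 145 and 127 bases. Between the full transcripts, Csf2rb-201 was at 99.3 TPM in replicate 1 and 106 TPM in replicate 2, and Csf2rb2-201 at 149 TPM and 132 TPM. In those units Csf2rb made up 40.1% of the pair in replicate 1 and 44.5% in replicate 2, close to its share by counts. The IL-3 specific beta chain was thus the higher of the full transcripts in both libraries.

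**Figure D4:**
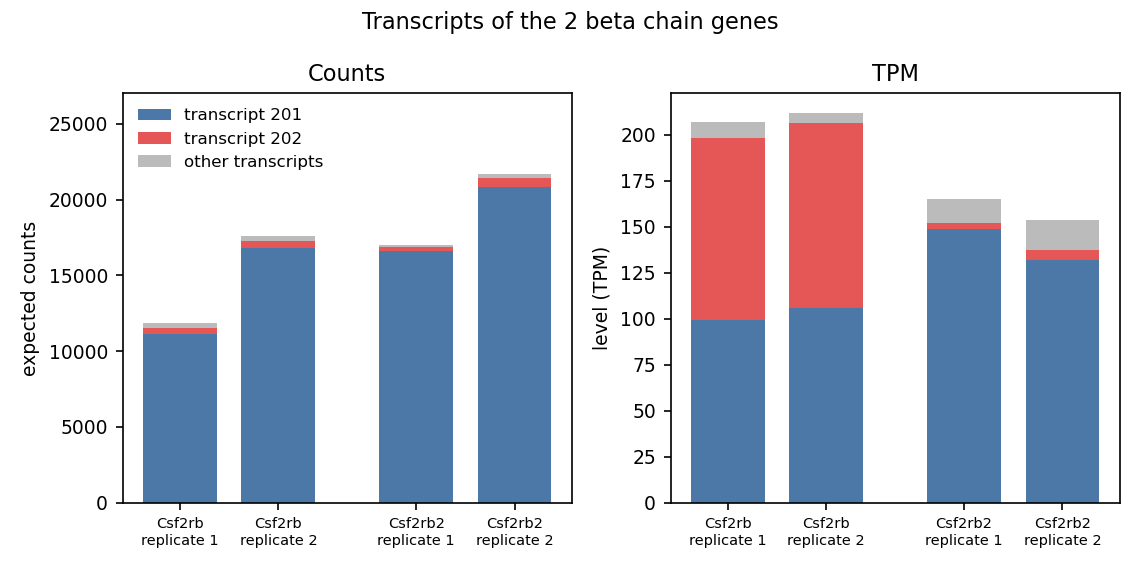
Expected counts (left) and TPM (right) of Csf2rb and Csf2rb2 in replicates 1 and 2, stacked by transcript. The short transcript of Csf2rb is a thin layer of the counts (3.03% in replicate 1 and 2.59% in replicate 2) and close to as thick as the full transcript in TPM, so that Csf2rb is the lower bar of the pair on the left and the higher on the right.

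Of the 4 listed partners of the beta chains, 1 was detected. This was Il3ra, the IL-3 receptor alpha chain, at 24.6 TPM in replicate 1 and 26.7 TPM in replicate 2, which did not differ past the threshold. Il5ra, the IL-5 receptor alpha chain, had 1 count in replicate 1 and 0 in replicate 2, and the ligands Il3 and Il5 were at 0 in both.

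The relay downstream of the beta chains, CSF3R and their relatives runs through JAK kinases and STAT factors. Of 12 listed genes 10 were detected, with a median of 22.4 TPM. On this list 2 were called higher and 9 lower in replicate 1 (30.1% and 29.4% of all genes tested). The median log2 ratio was -0.27, against 0.00 over all genes tested. Under total-count scaling 1 was higher and 10 were lower, against 2615 and 5711 of the 14110 genes tested. The kinase gene Jak1 was at 114 TPM in replicate 1 and 105 TPM in replicate 2. Socs3, a feedback inhibitor of cytokine receptors including CSF3R, was at 51.9 TPM in replicate 1 and 230 TPM in replicate 2 (log2 ratio -2.04). Cish, a feedback inhibitor induced through STAT5 and named here after its values were seen, was at 66 counts in replicate 1 and 342 counts in replicate 2 (log2 ratio -1.77; exact binomial test, adjusted p = 5.62e-24). Both inhibitors were thus lower in replicate 1, as were 29.4% of all genes tested. A link to the ligands Csf1 and Csf2, also lower there, was not tested.

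Csf3 (chr11:98701263-98703629, plus strand, mm10), the G-CSF gene, had 0 counts in both libraries, and 0 and 1 counts in the second quantification. Its receptor gene Csf3r (chr4:126024550-126044440, plus strand, mm10) was well above the detection limit, at 49.0 TPM in replicate 1 and 43.8 TPM in replicate 2, from 3319 and 3828 expected counts. Replicate 1 was higher. The log2 ratio was 0.39 (95% counting interval 0.33 to 0.46; exact binomial test, adjusted p = 3.36e-29), within the SD of 0.58 over genes, and 33.0% of genes had a ratio at least as large. The neutrophil markers, summing to 376 TPM in replicate 1 and 70.8 TPM in replicate 2, were higher in the same library. Most of each sum was S100a9 and S100a8, and the part of neutrophils in the Csf3r difference was not tested.

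The split of Csf3r between its transcripts depended on the quantification. Csf3r-201 and Csf3r-202 share a coding sequence of 2511 bases and differ outside it. Csf3r-201 took 61.5% of the gene's TPM in replicate 1 and 61.7% in replicate 2, with Csf3r-202 at 27.0% and 18.2%. The second quantification turned the order round, with Csf3r-201 at 26.1% and 17.5% and Csf3r-202 at 61.9% and 65.1%. Csf3r-204, a transcript with no coding sequence, took 6.05% and 6.18%, and 12.05% and 16.8% in the second quantification. The gene's level itself was close in both, at 46.4 TPM over the libraries and 41.8 TPM in the second quantification.

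**Figure D5:**
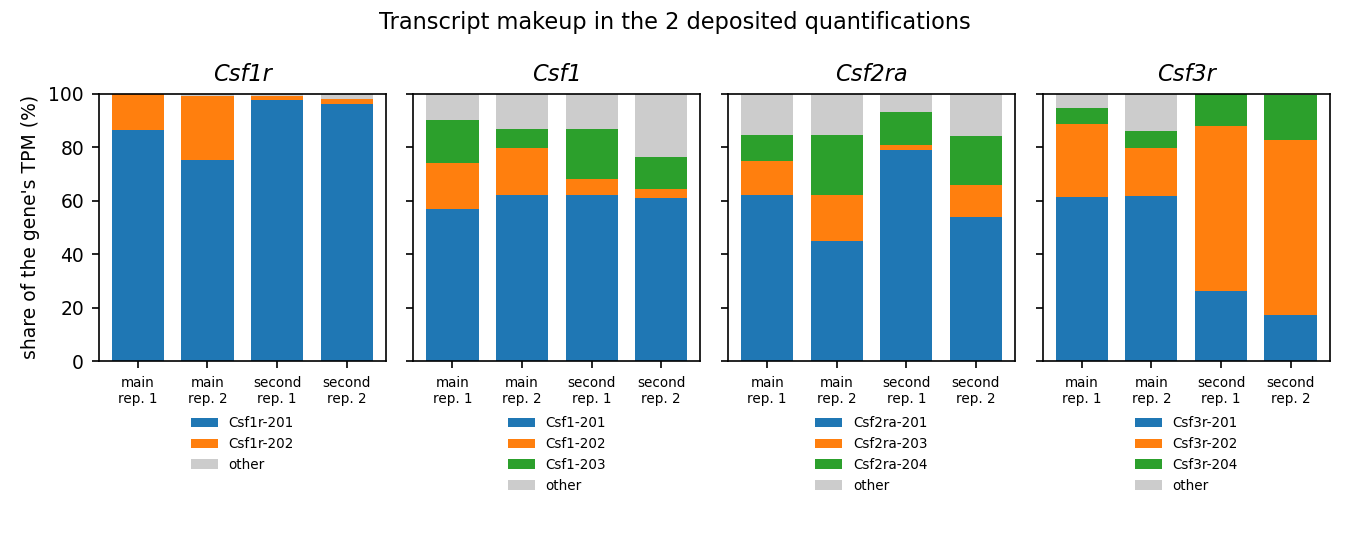
Share of each gene's TPM (percent) by transcript for Csf1r, Csf1, Csf2ra and Csf3r, in replicates 1 and 2, first in the main quantification and then in the second. Csf1r-201 leads throughout, while Csf3r-201 is below Csf3r-202 in the second quantification (26.1% and 61.9% in replicate 1).

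Flt3 (chr5:147330741-147400489, minus strand, mm10), the receptor of early progenitors and dendritic cells, was the receptor gene below the detection limit. It was at 0.63 TPM in replicate 1 and 0.18 TPM in replicate 2, from 53 and 22 counts, all in the coding transcript Flt3-201. Replicate 1 was higher, with a log2 ratio of 1.87 (95% counting interval 1.13 to 2.65; exact binomial test, adjusted p = 2.85e-07). The overlapping antisense gene Gm26597 was at 0 in both libraries. Of 8 dendritic cell markers 5 were called higher in the same library and none lower, against 30.1% and 29.4% of all genes tested. With total-count scaling 3 were higher and none lower, against 2615 and 5711 of the 14110 genes tested. Zbtb46, which defines the classical lineage, was at 18 counts in replicate 1 and 11 counts in replicate 2. The part of dendritic cells in the Flt3 difference was not tested.

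The ligand of FLT3 and the other class III receptor kinases were low as well. Of 5 listed genes 2 were detected, Kitl, the ligand of KIT, at 3.07 TPM in replicate 1 and 4.66 TPM in replicate 2, and Flt3l, the ligand of FLT3, at 3.09 TPM and 4.18 TPM. Of the 4 tested, Kitl and Kit were lower in replicate 1 and none was higher, against 29.4% and 30.1% of all genes tested. The platelet-derived growth factor receptor genes Pdgfra (0 and 6 counts in replicates 1 and 2) and Pdgfrb (2 and 12 counts) were close to 0. Of those named here, Csf1r was thus the class III receptor kinase gene above 1 TPM in both libraries, and Kit, Flt3, Pdgfra and Pdgfrb were not.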

How the data were processed

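Per the file headers, the deposited gene and transcript tables hold expected counts and TPM with a posterior SD of the counts, in the layout RSEM writes. A deposited table in the layout kallisto writes gives estimated counts and TPM per transcript, summed per gene here as the second quantification. Assembly mm10 and annotation M21 are named in the deposited text files, while no source used here names the tools, their versions or strand use. The deposited percent column (a transcript's share of its gene, per the file headers) gave the TPM shares of the main quantification. Those of the second quantification were computed from its TPM. Expected counts were rounded and scaled by TMM (edgeR 4.0.16), and the libraries were compared per gene by an exact two-sided binomial test (SciPy 1.17.1). It was tried on simulated counts drawn with counting error only, which is what the test assumes. That trial cannot show how the test behaves where libraries differ beyond counting error. Alternatives were total counts, size factors from DESeq2 1.42.0, TPM and other limits. Sequences were read from the mm10 reference and aligned with Biopython 1.88. Intervals and floors cover counting error only. The 10 genes and the pathway and marker lists were chosen with earlier results of these data known. The named genes are the 10, the 3 highest of each pathway list with those at 0, and transcripts with 10% or more of a gene's TPM in both libraries of either quantification; Fgr, Cebpa's test, Kit and others outside it were chosen after their values were seen. Without molecular identifiers, reads may repeat the same molecule, so p-values measure counting error only. Some genes that the naming rule would include are not reported here.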

Additional observations from a re-analysis of the deposited data

How the results depend on the processing

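The number of colony-stimulating factor genes detected was 6 at 0.5 and 5 TPM, in the second quantification, with posterior mean TPM and with TPM rescaled over protein-coding genes, and 6 to 7 when a library was left out (7 without replicate 1, where Csf2 passes). Of 52 pathway genes, 42 were detected, and 37 to 44 under the alternatives. Without a library the Csf2rb share of the beta chain counts was 41.0 to 44.8 percent, against 42.9 for the mean; by TPM it was 56.8, and with the full transcripts only, added after seeing the data, 42.3. Of the 6 genes called between libraries, 3 remained when a 2-fold difference was also required, and the count was 6 to 8 under the other alternatives. The log2 ratio of Csf2ra (0.07) reversed to -0.0708 with total counts and to -0.33 and -0.34 with TPM at pseudocounts of 1 and 0.1. That of Csf2rb (0.03) reversed to -0.11 with total counts (exact binomial test, adjusted p = 1.96e-10) and to -0.0340 and -0.0341 with TPM at pseudocounts of 1 and 0.1. With total counts the median log2 ratio of all detected genes was -0.12, and with TPM at a pseudocount of 1 it was -0.09, against 0.02; the cause of the reversals was not tested further. In the second quantification both passed the threshold, at 0.17 and 0.10. The other log2 ratios kept their direction, and those with a test kept their side of the threshold (TPM ratios have none). Of 51 mean levels under alternatives, 15 moved by more than the SD between libraries, including Csf2rb without Csf2rb-202, at 110 TPM in place of 209. No paired analysis was possible because there is a single group. With 2 libraries of a single group and no untreated cells, no level can be tied to the treatment, and genes at 0 are limited by depth to the floors given.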
